A study of Mus musculus with 6 samples.

Results

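The genes described here keep reactive oxygen in check: superoxide dismutases, catalase, glutathione peroxidases, peroxiredoxins, thioredoxin and its reductases, the enzymes of glutathione synthesis and use, the transcription factor NRF2 with its inhibitor KEAP1 and its best-known stress targets, and ferritin. They are every gene whose symbol starts with Gpx, Prdx, Gst or Txnrd, except 1 peroxiredoxin, and 18 named genes. This gave 50 genes of the 13535 measured, of which 47 are protein-coding and 3 are annotated as pseudogenes (Gstp-ps, Gpx4-ps2 and Gstm2-ps1). The RNA was that of beta-cells recovered by sorting from clusters of 2 kinds: pseudo-islets, in which they had been reaggregated together with alpha- and delta-cells, and pseudo-beta, which held beta-cells alone. Both kinds of cluster came from wild-type C57BL/6JRj male mice, 12 weeks old, and were cultured for 5 days in RPMI 1640 medium with serum, so the groups differed in the cells present in the cluster and in nothing else the labels name. There were 3 samples of each group, 1 from each of the experiments that the labels number 35, 36 and 37. Cells were sorted before and after the culture, so each library is an average over sorted cells and can hold RNA of cells that passed the gate wrongly.

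Superoxide dismutases turn superoxide into hydrogen peroxide, which catalase, glutathione peroxidases and peroxiredoxins then reduce to water. Glutathione peroxidases draw their electrons from glutathione and peroxiredoxins from thioredoxin, and glutathione reductase and the thioredoxin reductases renew both with NADPH. Beta-cells are known for low levels of catalase and of the cytosolic glutathione peroxidase. NRF2, held back by KEAP1 in unstressed cells, binds antioxidant response elements next to many of these genes, and ferritin stores iron, which would otherwise turn peroxide into more reactive oxygen.

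The values are the authors' normalized counts, which summed to between 17994346 and 19635287 per library, with 40.9% to 44.97% of a library in its 10 most abundant genes. The 50 genes held 1.01% to 1.09% of a library's sum. Values below are always given for experiments 35, 36 and 37 in that order, and a log2 fold change is that of pseudo-islets over pseudo-beta on the scale log2(normalized count + 1), from limma fitted on all 13535 genes with the experiment as a block. A gene was called at a Benjamini-Hochberg adjusted p under 0.05 over all genes.

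The only gene of the 50 to be called was Gstp1, a glutathione S-transferase of the pi class that attaches glutathione to reactive compounds, and its sequences are shown first. Gstp1 lies at chr19:4035407-4037985 on the minus strand (GRCm38, GENCODE M21). Its promoter, and those of 3 other members, hold TGANTCAGC, the core bound by NRF2 and its small MAF partners. These 4 windows are printed 5′ to 3′ from RefSeq (GRCm38.p6), with the match in capitals, because no other member with a promoter entry has it.
Gstp1, chr19:4037968-4037996, minus strand: tccaacgtgtTGAGTCAGCatccggggcg
Gstp2, chr19:4042292-4042320, minus strand: tccaacgtgtTGAGTCAGCatccggggcg
Prdx1, chr4:116685456-116685484, plus strand: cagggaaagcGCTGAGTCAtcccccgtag
Srxn1, chr2:152105469-152105497, plus strand: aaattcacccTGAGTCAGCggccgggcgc
Counted from the start in the promoter table, the match begins at -74 in Gstp1, -89 in Gstp2, the neighbouring near-copy of Gstp1, -133 in Prdx1, where it is on the other strand, and -45 in Srxn1. The start of Gstp1 in that table, 4037912, lies 73 bases inside the gene as GENCODE draws it, so 8 of the 9 bases of the match fall at the beginning of its first annotated exon, which is untranslated there. The RefSeq promoter table, from 250 bases before to 50 after each start, had an entry for 42 of the 50 genes, and not for Gclc, Gpx4-ps2, Gsr, Gstm2-ps1, Gstp-ps, Gstt2, Hmox1 and Prdx6. TGANTCAGC, searched on both strands and chosen after the sequences had been seen, was in 4 of the 42 genes (9.52%), against 1.255% of the 9801 genes of the expression table with a promoter entry and 1.37% of all 27025 genes. That share counts Gstp1 and Gstp2 separately, although they are neighbouring near-copies whose printed windows have the same letters. The antioxidant response element TGACNNNGC is a different pattern, which the matches printed for Gstp1, Gstp2 and Srxn1 do not meet. It was in 8 of the 42 (19.0%), namely Nfe2l2, Srxn1 (at another site), Gstm5, Gstm7, Gclm, Prdx1, Txnrd1 and Sod1, against 17.0% and 14.0%. In Prdx1 the motifs are the same bases. The cAMP response element TGACGTCA was in 0 of the 42, against 3.89% and 2.03%. A match is a stretch of letters and does not show that a factor binds there.

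Reads of 75 bases could not always be told apart between Gstp1 and its relatives. The coding sequences of Gstp1 and Gstp2, both 633 bases long, differ at 12 positions (98.1% identity). Their first 75 coding bases are shown, with the 6 differing bases in capitals.
Gstp1 coding bases 1 to 75: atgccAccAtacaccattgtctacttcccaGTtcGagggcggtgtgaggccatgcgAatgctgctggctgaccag
Gstp2 coding bases 1 to 75: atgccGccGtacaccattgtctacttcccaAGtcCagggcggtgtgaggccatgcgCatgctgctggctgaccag
Of all 75-base windows of the Gstp1 transcript, 57.7% also occurred in a transcript of Gstp2 or Gstp-ps. The same was true of 69.9% of the windows of Ftl1 and 55.3% of those of Gpx4, whose copies are pseudogenes. Among the 50 genes, 33 shared no window with another gene, and 6 shared over 50% (Ftl1, Gpx4, Gpx4-ps2, Gstp-ps, Gstp1 and Gstp2).

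Gstp1 was higher in pseudo-islets in each experiment. It stood at 10503, 6061 and 10305 in pseudo-islets against 8569.9, 4077 and 5180.4 in pseudo-beta. Experiment 35 had the highest level in both groups, and the groups overlapped, since 8570 in pseudo-beta of experiment 35 lay above 6061 in pseudo-islets of experiment 36. The mean was 8956 ± 2509.6 in pseudo-islets and 5942 ± 2341 in pseudo-beta (SD, n = 3). The ratio within an experiment was 1.23, 1.49 and 1.99, and the log2 fold change was 0.62 (SE 0.11, 95% interval 0.37 to 0.86). In limma with the experiment as a block Gstp1 had an adjusted p of 0.038, and in limma without the block 0.92, so the call rested on comparing clusters within experiments. It also rested on experiment 37, without which the log2 fold change was 0.43 with a limma adjusted p of 0.15. Over all the alternatives run, which leave out single libraries as well, the adjusted p ran from 0.017 to 0.9999. The highest came from limma without the block and without pseudo-islets of experiment 35, a fit that called 0 of all genes. The sum of Gstp1, Gstp2 and Gstp-ps, which does not depend on how reads were divided among them, was 10725, 6244 and 10543 in pseudo-islets against 8781, 4193 and 5302 in pseudo-beta. Gstp1 made up 97.6% of it, and the sum was higher in pseudo-islets in each experiment as well.

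Gcg, which encodes glucagon and marks alpha-cells, differed between the same groups. It stood at 1763, 941 and 2094 in pseudo-islets against 36.1, 14.1 and 0 in pseudo-beta. Of the 11 alpha-cell markers listed, 7 were in the table, and they summed to 13519 to 16752.5 in pseudo-islets and 9957 to 11754 in pseudo-beta. Sst, the somatostatin gene of delta-cells, stood at 190.2, 146 and 210.2 in pseudo-islets against 0, 0 and 4.74 in pseudo-beta. The only other of the 8 delta-cell markers in the table, Rbp4, was lower in pseudo-islets in 2 of 3 experiments, with a log2 fold change of -0.05. The 4 markers of PP-cells (Ppy, Pyy, Tspan8 and Tmem176b) were all fitted higher in pseudo-islets. They summed to 3404 to 8195 there and 2837 to 5242 in pseudo-beta. Ppy stood at 4172, 383 and 1790.5 in pseudo-islets against 1650, 219 and 731 in pseudo-beta. The log2 fold changes were 1.15 for Ppy, 1.04 for Pyy, 0.22 for Tspan8 and 0.09 for Tmem176b. Ppy and Pyy were called with the block, at limma adjusted p of 0.0027 and 0.026, and not without it, at 0.99 and 0.98. The surplus of Gstp1 in pseudo-islets was 1933, 1983 and 5124 normalized counts. Whether RNA of alpha-, delta- or PP-cells had a part in the difference of Gstp1, or in those of the other genes, was not tested. Fewer cells of a type and less RNA per cell cannot be told apart in such samples. Markers of acinar cells (0 of 10) and stromal cells (0 of 6) were not among the measured genes, and 1 of 6 endothelial markers (Esam) and 1 of 7 immune markers (Cd68) were. The label beta-cells was checked against 9 markers, Ins1 and Ins2 among them. All 9 were measured, and they held 38.3% to 42.4% of a library's sum. Nearly all of this was Ins2, Ins1 and Iapp (means over the libraries 5650230, 1141690 and 613903), so the sum says little about the other markers. Of the 9, 7 were fitted higher in pseudo-islets and 2 lower (Slc2a2 and Nkx6-1, each lower in all 3 experiments), and 0 were called.

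**Figure D1:**
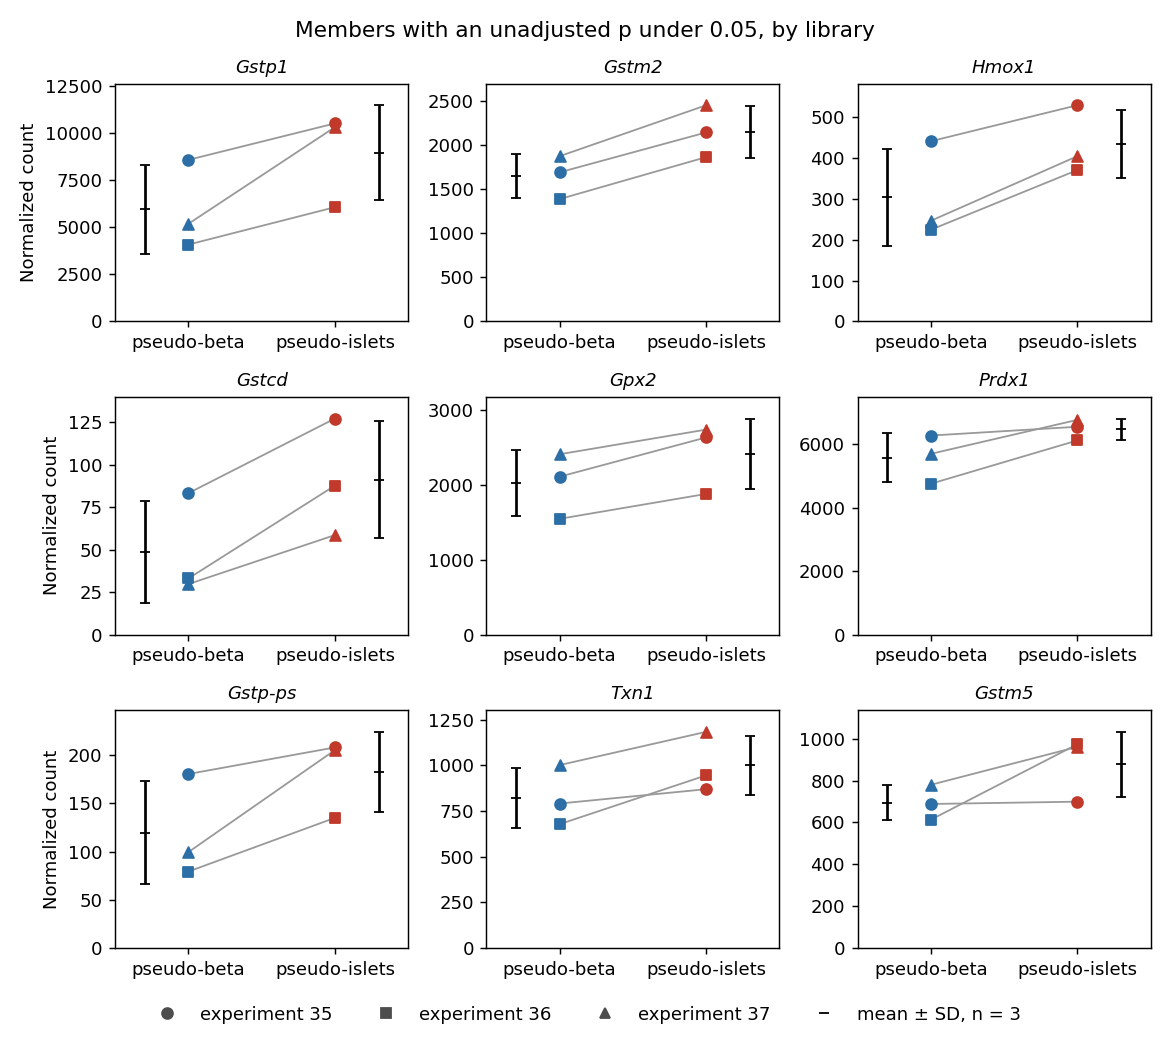
Normalized count (y axis, from 0) of the 9 genes with an unadjusted p under 0.05, in pseudo-beta (blue) and pseudo-islets (red), with a symbol and a joining line for each experiment and black bars for the mean ± SD of 3 libraries. Every line rises, and for each gene the highest pseudo-beta library lies above the lowest pseudo-islet library.

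Gstp1 was the only one of the 50 genes to be called, which is 2% of them, against 0.539% of all genes called in either direction and 0.436% called as higher in pseudo-islets. Without the block 0 of the 50 were called, where 0.0591% of all genes were, and 2 had an unadjusted p under 0.05 (Gstm2 and Gstp1). At an unadjusted p under 0.05 with the block there were 9 genes, all of them higher in pseudo-islets (18%), against 6.69% of all genes higher, and 0 lower against 5.22%. Under quantile normalization there were also 9, of which 6 were higher, and the share of all genes was not counted there. Without the block the 2 genes were both higher (4%), against 2.73% of all genes. The groups overlapped for every one of the 50, while they lay apart for 5.63% of all genes with pseudo-islets higher and 5.13% with pseudo-islets lower. Fth1 and Prdx6 lay apart, lower in pseudo-islets, after rescaling without the 10 most abundant genes and after quantile normalization. The share of all genes lying apart was not counted under those settings, so nothing is read from these 2 genes. With 3 samples against 3 an exact permutation test cannot give a two-sided p under 0.1, and with 3 pairs not under 0.25, so single genes were not tested that way.

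Most of the 50 genes leaned towards pseudo-islets by small amounts. The fitted difference was above 0 for 37 and below 0 for 13 (35 and 15 after rescaling without the 10 most abundant genes, 36 and 14 after quantile normalization), with a median log2 fold change of 0.13, where 51.4% of all genes were above 0 with a median of 0.01. After rescaling the median of the 50 was 0.07, where 42.3% of all genes were above 0 with a median of -0.05. Values were higher in pseudo-islets in all 3 experiments for 20 genes (40%, against 18.0% of all genes) and lower in all 3 for 5 (10%, against 15.0%). The spread between experiments was as large as these differences: the level differed between experiments by more than the groups did for 43 of the 50 genes (86%, against 80.1% of all genes). For 29 genes the 95% interval lay within a 1.5-fold change either way.

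**Figure D2:**
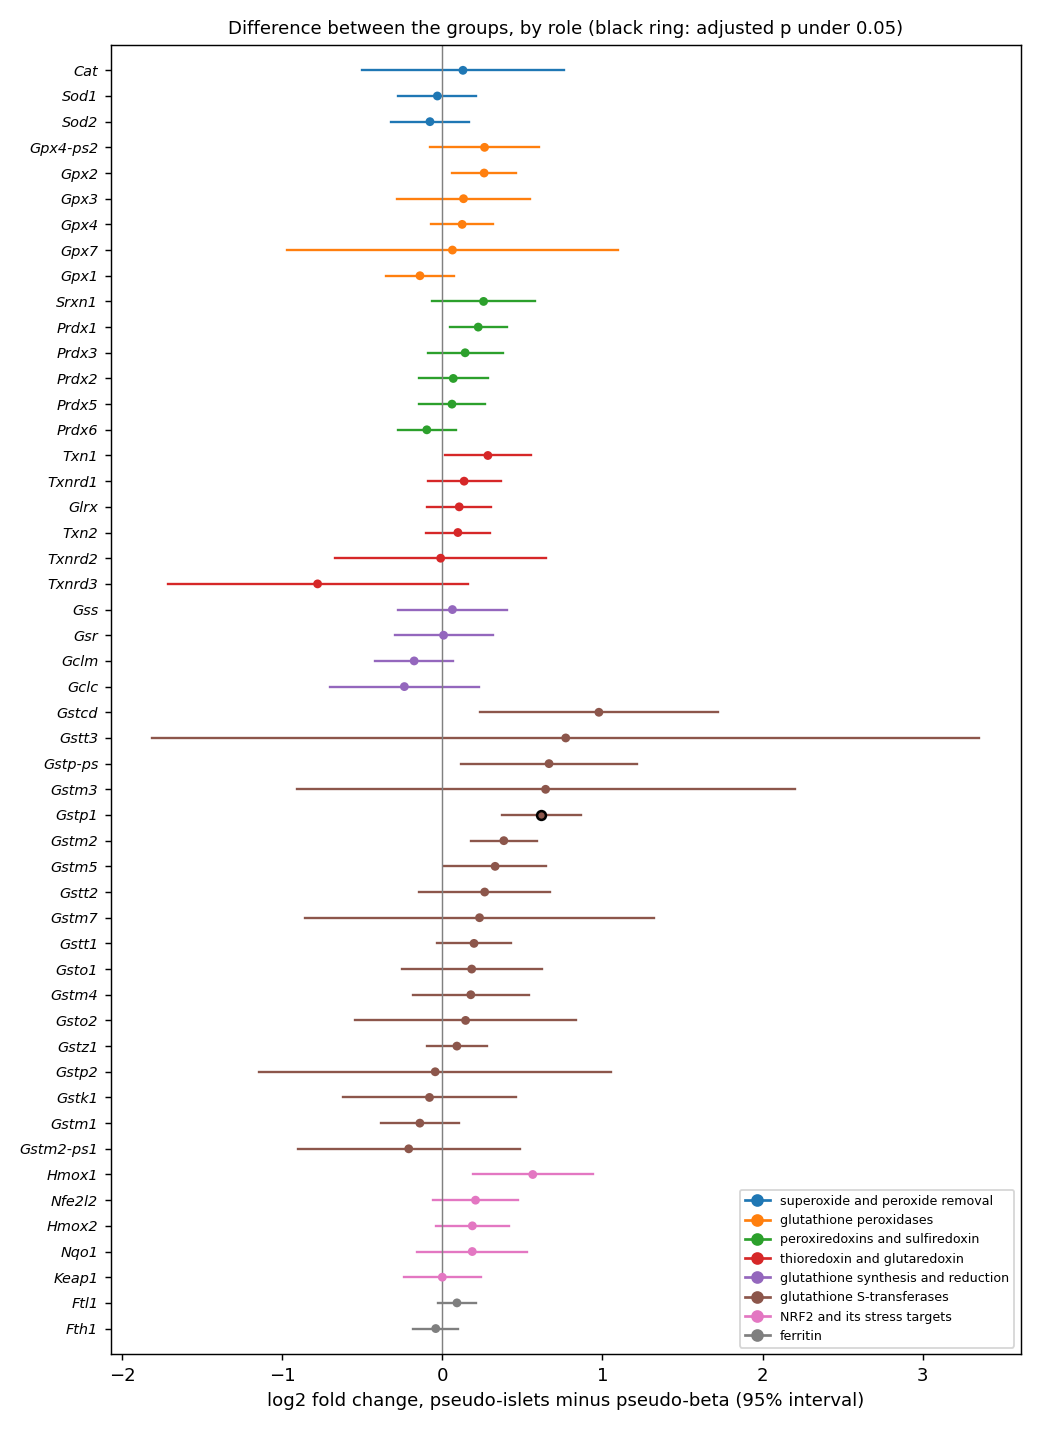
The log2 fold change of each of the 50 genes, pseudo-islets minus pseudo-beta (x axis), with its 95% interval from limma with the experiment as a block, coloured by role. The ringed point is Gstp1 (0.62), the only called gene, and the wide intervals belong to low genes such as Gstt3 and Gstm3.

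Glutathione S-transferases were the largest group. Of the 18 in the table, Gstp1 included, 14 were higher and 4 lower (Gstp2 turned under quantile normalization), 1 was called and 5 had an unadjusted p under 0.05. Gstm2, of the mu class, stood at 2142, 1862 and 2449.9 in pseudo-islets against 1690.0, 1387 and 1873 in pseudo-beta. It was higher in each experiment by a similar amount, with a ratio of 1.27, 1.34 and 1.31 and a log2 fold change of 0.38 (SE 0.09, 95% interval 0.18 to 0.59), and an adjusted p of 0.13 with the block and 0.90 without it in limma. Gstm5 stood at 699, 973 and 961 in pseudo-islets against 688, 613 and 779.5 in pseudo-beta. Its difference lay mainly in experiment 36, and its log2 fold change was 0.33 (SE 0.14, 95% interval 0.01 to 0.65, limma adjusted p = 0.40). Gstcd, a gene with a transferase-like domain that overlaps Ints12 on the other strand, was low, at 127, 87.7 and 58.6 in pseudo-islets against 83.3, 33.1 and 29.8 in pseudo-beta. It was higher in each experiment, with a log2 fold change of 0.98 (SE 0.34, 95% interval 0.23 to 1.72) and a limma adjusted p of 0.29. The pseudogene Gstp-ps stood at 208, 135 and 205 in pseudo-islets against 180.3, 79.3 and 99.4 in pseudo-beta, with a log2 fold change of 0.67 (SE 0.25, 95% interval 0.12 to 1.22, limma adjusted p = 0.33). Its libraries fell in the order of those of Gstp1, with which it shares sequence.

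Gstm1, by count the highest transferase, went its own way. It stood at 11055, 8959 and 9505 in pseudo-islets against 16215, 8543 and 9086 in pseudo-beta. The pseudo-beta library of experiment 35 was far above the other 5, and without it the fitted difference turned from -0.14 to 0.15 in limma without the block. Without experiment 35 it was 0.07 with the block. The same library had the highest Sod2, Prdx6 and Txnrd3 of the 6. Gstp2 stood at 14.1, 48.3 and 33.2 in pseudo-islets against 31, 36.9 and 22 in pseudo-beta, low beside Gstp1 and in no order that followed it. The remaining transferases had log2 fold changes from -0.21 (Gstm2-ps1) to 0.77 (Gstt3). That of Gstt3 was 1.73 with a pseudocount of 0.1 and 0.23 with a pseudocount of 10, and that of Gstm3, fitted at 0.65, was 0.32 with a pseudocount of 10. Gstz1, an enzyme of tyrosine breakdown, had a mean of 3078 in pseudo-islets and 2883 in pseudo-beta, and Gstt1, of the theta class, 1597 and 1392. Gstm4 (0.18), Gstk1 (-0.08), Gsto1 (0.18), Gsto2 (0.15) and Gstt2 (0.27) had group means from 73.0 (Gsto2) to 469.5 (Gstm4), and those of Gstm3 (0.65), Gstm7 (0.23) and Gstt3 were at most 35.8 normalized counts, with Gstt3 listed at 0 in pseudo-beta of experiment 36.

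Of the 6 glutathione peroxidases, 5 were higher and 1 lower. Gpx2, better known from gut epithelium, was higher in each experiment. It stood at 2634, 1879.9 and 2739 in pseudo-islets against 2109.9, 1548 and 2409.7 in pseudo-beta, with a log2 fold change of 0.26 (SE 0.09, 95% interval 0.06 to 0.46), and a limma adjusted p of 0.29. Gpx4, which reduces lipid peroxides in membranes and so holds off ferroptosis, had the highest level of them per length. It stood at 2544, 2956 and 2915 in pseudo-islets against 2150.1, 2825 and 2787 in pseudo-beta, with a log2 fold change of 0.12 (SE 0.09, 95% interval -0.07 to 0.32), and the sum with its pseudogene Gpx4-ps2 was 2910.5 to 3438 in pseudo-islets and 2447 to 3257 in pseudo-beta. Gpx1, the cytosolic enzyme, stood at 1378, 1816 and 1781 in pseudo-islets against 1572, 2038 and 1857 in pseudo-beta. It was lower in pseudo-islets in each experiment, by less than experiments differed, with a log2 fold change of -0.14 (SE 0.10, 95% interval -0.35 to 0.07). The log2 fold changes of the secreted Gpx3 (means 312 and 277), Gpx7 (41.9 and 38.7) and Gpx4-ps2 (434 and 363) were 0.13, 0.06 and 0.26.

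None of the 3 genes for superoxide dismutases and catalase passed the test. Sod1, the cytosolic copper-zinc enzyme, stood at 1109, 1055 and 1306 in pseudo-islets against 1045, 1193 and 1306 in pseudo-beta, and Sod2, the mitochondrial manganese enzyme, at 2573, 2775 and 2492 in pseudo-islets against 3367, 2767 and 2240.4 in pseudo-beta. Neither had a consistent side across experiments, with log2 fold changes of -0.03 (SE 0.11, 95% interval -0.27 to 0.21) and -0.08 (SE 0.11, 95% interval -0.32 to 0.16). Cat stood at 107, 111 and 70.1 in pseudo-islets against 86.9, 129 and 55.9 in pseudo-beta, and its log2 fold change was 0.13 (SE 0.29, 95% interval -0.50 to 0.76), an interval that runs past a 1.5-fold rise.

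Prdx1, a cytosolic peroxiredoxin and the highest of the 6 genes for peroxiredoxins and sulfiredoxin, of which 5 were higher (3 under quantile normalization), was higher in pseudo-islets in each experiment. It stood at 6555, 6123 and 6772 in pseudo-islets against 6278, 4758 and 5702 in pseudo-beta. The groups overlapped through pseudo-beta of experiment 35, and the log2 fold change was 0.22 (SE 0.08, 95% interval 0.05 to 0.40) with a limma adjusted p of 0.31. Srxn1 encodes sulfiredoxin, which repairs overoxidised peroxiredoxins. It stood at 717, 548 and 696 in pseudo-islets against 486, 499 and 658 in pseudo-beta, higher in each experiment and most in experiment 35, with a log2 fold change of 0.26 (SE 0.15, 95% interval -0.06 to 0.58, limma adjusted p = 0.52). The means of Prdx2 were 2424 and 2298, of the mitochondrial Prdx3 1289 and 1170, of Prdx5 2369 and 2269 and of Prdx6 3730 and 3995, with log2 fold changes of 0.07, 0.14, 0.06 and -0.10. Prdx2 and Prdx5 were below 0 under quantile normalization, at -0.02 each.

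Of the 6 genes for thioredoxin, its reductases and glutaredoxin, 4 were higher and 2 lower, of which Txnrd2 was above 0 under quantile normalization. Txn1, cytosolic thioredoxin, was higher in pseudo-islets in each experiment. It stood at 869, 945 and 1183 in pseudo-islets against 791, 678 and 1001 in pseudo-beta, with a log2 fold change of 0.29 (SE 0.12, 95% interval 0.02 to 0.55), and its limma adjusted p was 0.39. Its reductase Txnrd1 stood at 1396, 974 and 1751 in pseudo-islets against 1289.5, 891 and 1558 in pseudo-beta. It was also higher in each experiment, by 1.08 to 1.12 times, against a spread between experiments of 0.83 on the log2 scale, with a log2 fold change of 0.14 (SE 0.10, 95% interval -0.09 to 0.36). Glrx, glutaredoxin, had the highest level of these per length and stood at 3498, 2789.6 and 3158 in pseudo-islets against 3236, 2887 and 2645 in pseudo-beta, lower in pseudo-islets only in experiment 36. The mitochondrial Txn2 (means 2232 and 2087) had a log2 fold change of 0.10, the mitochondrial reductase Txnrd2 (203 and 216) of -0.01 and Txnrd3 (28.3 and 53.8) of -0.78 with a 95% interval of -1.71 to 0.16.

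Of the 4 genes of glutathione synthesis and reduction, 2 were higher and 2 lower, with Gsr below 0 after rescaling. Gclc and Gclm, the catalytic and modifier subunits of glutamate-cysteine ligase, the step that limits synthesis, were lower in pseudo-islets in each experiment, without passing the test. Gclc stood at 179, 123 and 182 in pseudo-islets against 199, 155 and 213 in pseudo-beta, and Gclm at 685, 1066 and 1643 in pseudo-islets against 748, 1308 and 1765 in pseudo-beta. Gclm differed far more between experiments than between groups, by 1.25 on the log2 scale, and the log2 fold changes were -0.24 (SE 0.21, 95% interval -0.70 to 0.23) and -0.18 (SE 0.11, 95% interval -0.42 to 0.07) with limma adjusted p of 0.72 and 0.59. Glutathione reductase, Gsr, stood at 492, 499 and 853 in pseudo-islets against 534, 528 and 730.3 in pseudo-beta, with its log2 fold change at 0.01, and Gss, glutathione synthetase, had means of 411 and 388 with a log2 fold change of 0.06. Gsr was at -0.05 after rescaling without the 10 most abundant genes.

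**Figure D3:**
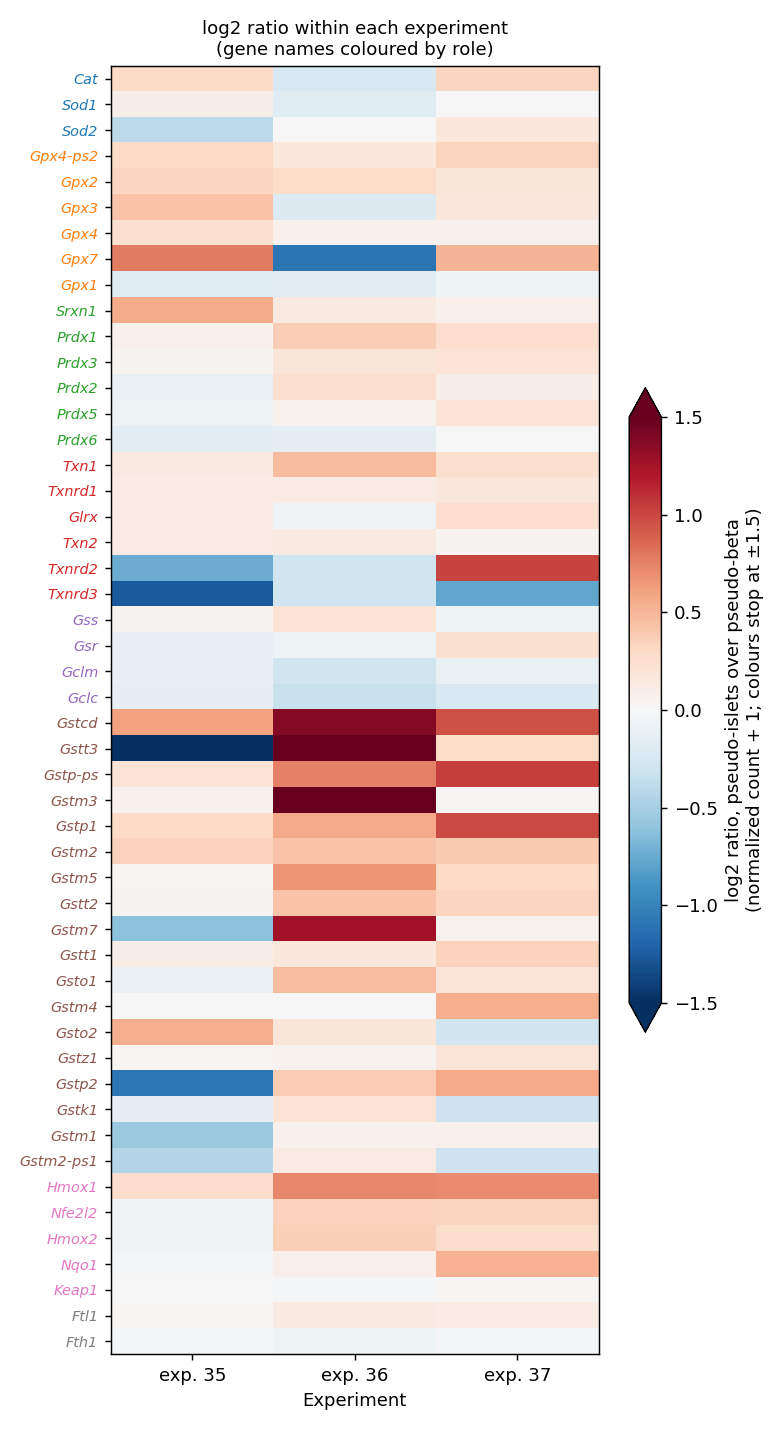
The log2 ratio of pseudo-islets over pseudo-beta within each experiment (columns) for each of the 50 genes (rows, names coloured by role), from normalized count + 1, red where pseudo-islets were higher and blue where lower. Gstp1, Gstm2 and Hmox1 are red in all 3 columns, while Gstm7 and Txnrd2 change colour between experiments.

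Hmox1, the inducible haem oxygenase, had the largest change in its role, which holds Nfe2l2, Keap1, Nqo1, Hmox1 and Hmox2. All 5 were fitted above 0, Keap1 only until the values were rescaled or quantile normalized. They include NRF2 itself, its inhibitor and a constitutive enzyme, so their shared direction is not a readout of NRF2, whose activity was not tested. Hmox1 stood at 529, 370.3 and 404 in pseudo-islets against 441, 224 and 246 in pseudo-beta. It was higher in each experiment, by 1.20, 1.65 and 1.64 times, with a log2 fold change of 0.57 (SE 0.17, 95% interval 0.19 to 0.94), and its limma adjusted p was 0.23 with the block and 0.94 without it. Nqo1, a quinone reductase and a standard readout of NRF2, stood at 482, 569 and 591 in pseudo-islets against 493, 538 and 413 in pseudo-beta, and its log2 fold change was 0.19 (SE 0.16, 95% interval -0.15 to 0.53, limma adjusted p = 0.70). Nfe2l2, the gene of NRF2 itself, stood at 1381, 1282 and 1017 in pseudo-islets against 1432, 1013 and 806 in pseudo-beta. Both were slightly lower in pseudo-islets in experiment 35 and higher in the other two. The log2 fold change of Nfe2l2 was 0.21 (SE 0.12, 95% interval -0.06 to 0.47). Keap1 stood at 1176, 1232 and 859.6 in pseudo-islets against 1175, 1251 and 846 in pseudo-beta, and differed by less than 0.01 on the log2 scale, with a 95% interval of -0.24 to 0.24, and by -0.06 and -0.04 after rescaling without the 10 most abundant genes and after quantile normalization. The constitutive Hmox2 stood at 2226, 2329 and 2278 in pseudo-islets against 2309.6, 1821 and 1898 in pseudo-beta, with a log2 fold change of 0.19 (SE 0.10, 95% interval -0.04 to 0.42).

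Ferritin made up most of the RNA of these genes and neither chain passed the test. Ftl1, the light chain, stood at 109559, 118585 and 122030.0 in pseudo-islets against 107290.0, 108067 and 112950.0 in pseudo-beta. Its reads can include those of its pseudogenes, and it was higher in pseudo-islets in each experiment with a log2 fold change of 0.09 (SE 0.05, 95% interval -0.03 to 0.21, limma adjusted p = 0.54). Fth1, the heavy chain with the ferroxidase activity, stood at 12919, 13001 and 13260.4 in pseudo-islets against 13207, 13616 and 13474 in pseudo-beta. It was lower in each experiment, with a ratio of 0.98, 0.95 and 0.98 and a log2 fold change of -0.04 (SE 0.06, 95% interval -0.18 to 0.10). The intervals of both lie within a 1.5-fold change. Ftl1 and Fth1 together held 0.657% to 0.691% of a library's sum.

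**Figure D4:**
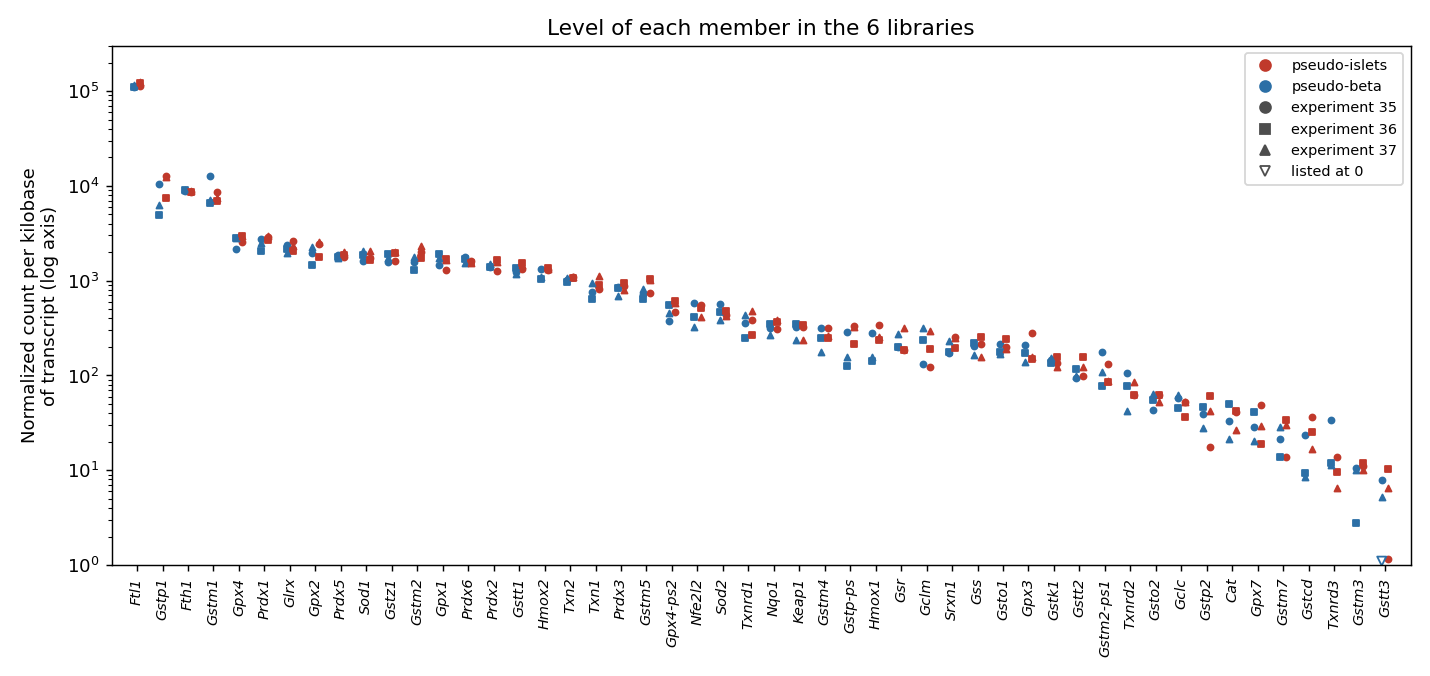
Normalized count per kilobase of the longest annotated transcript (y axis, log scale) of each gene in the 6 libraries, blue for pseudo-beta and red for pseudo-islets, with a symbol for each experiment, ordered by the mean over libraries. Ftl1 leads, Gstp1, Fth1 and Gstm1 follow, and Cat and Gclc are near the low end.

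Levels of different genes were compared per kilobase of transcript, as means over the 6 libraries. Ftl1 led with 116818 normalized counts per kilobase, and was followed by Gstp1 (9073), Fth1 (8866) and Gstm1 (8193), whose libraries overlapped in level. Gpx4 (2709.8), Prdx1 (2629), Glrx (2257), Gpx2 (2081), Prdx5 (1837), Sod1 (1824), Gstz1 (1799.8) and Gpx1 (1623) came below them. Nfe2l2 (467), Txnrd1 (362) and Hmox1 (235) were in the middle of the order. Cat was at 35.7, rank 44 of the 50, and Gclc at 51.2, rank 42. Among the 50 genes, Sod1 and Gpx1 messages thus ranked high per length, and those of catalase low. No other tissue and no enzyme level was measured, so these ranks do not say whether beta-cells are low in any of them.

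Genes that feed or surround this system were taken from 7 lists of 106 genes, of which 89 were measured under a single identifier. Of these, 60 were higher (67.4%, against 51.4% of all genes) and 29 lower, with a median log2 fold change of 0.06. An unadjusted p under 0.05 was reached by 7 in each direction (7.87%, near the 6.69% of all genes higher and 5.22% lower), and only Txnip was called with the block and 0 without it. Txnip, which binds and inhibits thioredoxin, stood at 586, 334 and 1243 in pseudo-islets against 1098, 564 and 1759 in pseudo-beta. It was lower in pseudo-islets in each experiment, with a log2 fold change of -0.72 (SE 0.13, 95% interval -1.005 to -0.44) and a limma adjusted p of 0.038 with the block and 0.98 without it. Of the 8 genes of NADPH supply 7 were higher, led by Idh1, cytosolic isocitrate dehydrogenase, which stood at 2974, 2611 and 2199 in pseudo-islets against 2205, 1959 and 1611 in pseudo-beta. Idh1 was higher in each experiment, with a log2 fold change of 0.43 (SE 0.09, 95% interval 0.24 to 0.63, limma adjusted p = 0.066), and the lowest of that list was Pgls, at -0.07. Of 16 genes of selenoprotein synthesis and other selenoproteins 9 were lower, with Selenow at 1042, 1329 and 939 in pseudo-islets against 1683, 1728 and 1388 in pseudo-beta. For Selenow the groups did not overlap, and its log2 fold change was -0.54 (SE 0.11, 95% interval -0.79 to -0.30, limma adjusted p = 0.059), while Sephs2, which makes the selenium donor, had the highest of that list at 0.22.

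The ends of each list leave out genes whose mean normalized count was under 50. Among 18 genes of iron and haem handling 13 were higher and 5 lower, with 4 and 2 at an unadjusted p under 0.05, from Slc25a28, a mitochondrial iron importer, at -0.73 to Slc11a2, the iron transporter DMT1, at 0.46. Of 14 genes of glutathione turnover and transport 10 were higher, from Abcc1, an exporter of glutathione conjugates, at -0.38 to Ggct at 0.35. Below that mean, Slc7a11, the cystine importer subunit, was fitted at 1.33 (95% interval -0.15 to 2.82) and was higher in 2 of 3 experiments. Of 14 NRF2 partners and other targets 11 were higher, from Cul3, the ubiquitin ligase scaffold that works with KEAP1, at -0.12 to Bach1, a repressor at the same elements, at 0.31, and 0 had an unadjusted p under 0.05. Of 15 genes linked to thioredoxin and glutaredoxin 10 were higher, with Glrx5 at the top (0.25), which was higher in experiment 35 alone and was fitted at -0.26 without that experiment. Of 4 measured genes of superoxide sources and ferroptosis 2 were higher, with Acsl4, which loads membranes with peroxidisable lipids, at 0.47 and Dhodh at -0.42. The log2 fold changes of Slc25a28, Slc11a2, Abcc1, Ggct, Cul3, Bach1, Glrx5, Acsl4 and Dhodh did not pass the adjusted threshold.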

How the data were processed

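Total RNA of beta-cells, sorted after culture as pseudo-islets or as pseudo-beta (3 libraries each, experiments 35, 36 and 37, day 5) was sequenced by the authors in pairs of 75-base reads after library preparation from 5 ng with the Ovation Solo kit and depletion of ribosomal RNA. Per the labels and the study's methods, reads were aligned to GRCm38 with STAR 2.7.6a, quantified with RSEM 1.3.1 and normalized with DESeq2 1.26.0 in R 3.6.3. The annotation release and whether counting used strand are not given in the sources used here. The deposited signal is the authors' normalized count per gene and library, which is not a whole number of reads, so the reads per library are unknown and no count test was run. The deposited table also holds the authors' own mean, log2 fold change with its error, test statistic as a score and p-value columns, which were not used. Each of its 13535 genes reaches 10 normalized counts in 3 or more libraries. Precision is given by limma's standard errors.

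Values were compared as log2(normalized count + 1) with limma 3.58.1 in R 4.3.3 (prior variance following the mean, experiment as a replicate block, Benjamini-Hochberg adjustment over all genes). The method was also run on simulated data drawn from its own fitted model, which cannot show how well that model suits these libraries. The experiment numbers come from the sample labels. Deviations from the group means correlated at 0.119 to 0.325 between libraries of an experiment and at -0.203 to 0.0922 between libraries of different experiments. Pairing by these numbers was part of how the comparison was defined, and the correlations were a weak check on it. All pairs were above 0.1, but the lowest, 0.119, was close to the highest between experiments, 0.0922. The labels do not say how many mice an experiment pooled. The genes, roles and lists, the block and the trend were chosen with earlier results of these data known. Values are given in every library for genes called or with an unadjusted p under 0.05, for the highest gene of each role and for a fixed set of core genes. Listed genes outside the 50 are named when called or at either end of their list with a mean of at least 50. Nnt, which has more than 1 identifier, was left out of its list. Lengths, coordinates and shared 75-base windows come from GENCODE M21 and promoters from RefSeq GRCm38.p6. The alternatives were no block, pseudocounts of 0.1 and 10, a minimum of 10 normalized counts in each library, rescaling without the 10 most abundant genes, quantile normalization, a prior variance equal for all genes, a robust prior, an adjusted p under 0.1 and leaving out each experiment or library.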

Additional observations from a re-analysis of the deposited data

How the results depend on the processing

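The number of the 50 genes called was 1, Gstp1, with the replicate block and 0 with no replicate block, with a pseudocount of 0.1 (Gstp1 adjusted p = 0.056 in limma) and with a prior variance equal for every gene (0.56). Of all genes, these fits called 0.539%, 0.0591%, 0.369% and 0% in that order. Leaving out experiment 35, 36 or 37 gave 1, 1 and 0, where 0.207%, 0.539% and 0.332% of all genes were called. Leaving out a library, without the block, gave 0, where 0% to 0.096% of all genes were called. The number of pathway genes called was 1, Txnip, and became 0 with no replicate block, with a pseudocount of 0.1 and with an equal prior variance. It became 3 (Idh1, Selenow and Txnip) with a pseudocount of 10, with a minimum of 10 normalized counts in each library and at an adjusted p under 0.1. It was 2 after rescaling without the 10 most abundant genes and after quantile normalization, and ran from 0 to 2 when an experiment or library was left out. Without experiment 35, 36 or 37 the genes with an unadjusted p under 0.05 numbered 10, 4 and 5 of the 50. The share of all genes at that threshold was not counted in these fits, which hold fewer libraries. The number whose groups did not overlap was 0, and 2 after rescaling and after quantile normalization (Fth1 and Prdx6), where the share of all genes was not counted. No other call among the 50 changed with the block.

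Of all genes called, 59 of 73 were higher in pseudo-islets, against 55 of 82 after rescaling and 57 of 81 after quantile normalization. Rescaling turned the sign of Gsr (to -0.050) and Keap1 (to -0.058), and quantile normalization that of Prdx2 (-0.016), Prdx5 (-0.015), Txnrd2 (0.059), Gstp2 (0.050) and Keap1 (-0.043). Leaving out a library or an experiment turned the sign of log2 fold changes that had not been called, and the cause was not tested. Without the block and pseudo-islets of experiment 35, the log2 fold change was -0.15 for Gpx3, -0.28 for Gpx7, 0.064 for Txnrd2, 0.14 for Gclm, 0.44 for Gstp2, -0.064 for Keap1 and 0.050 for Cul3. With no block, leaving out pseudo-islets of experiment 36 gave 0.033 for Sod1, -0.00064 for Prdx2, 0.063 for Txnrd2, -0.097 for Gss, -0.012 for Gstm7, -0.097 for Keap1 and 0.31 for Cul3. Without the block and pseudo-islets of experiment 37, the log2 fold change was -0.059 for Txnrd1, -0.25 for Gsr, 0.00032 for Gstk1 and -0.012 for Glrx5. With no block, leaving out pseudo-beta of experiment 35 gave 0.068 for Sod2, -0.0037 for Gpx4, 0.28 for Txnrd2, -0.064 for Gsr, 0.15 for Gstm1, 0.11 for Gstm2-ps1, -0.0074 for Gsto2 and -0.28 for Glrx5. Without the block and pseudo-beta of experiment 36, the log2 fold change was -0.086 for Txnrd1, 0.060 for Txnrd2, -0.072 for Gsr, -0.034 for Gstm7, 0.12 for Gstp2, -0.47 for Gstt3 and 0.0064 for Pgls. With no block, leaving out pseudo-beta of experiment 37 gave -0.17 for Cat, 0.045 for Sod1, -0.013 for Gpx3, -0.18 for Gpx7, 0.10 for Gclm, -0.060 for Gss, -0.040 for Gstm4, -0.17 for Keap1 and 0.36 for Cul3. With the block, leaving out an experiment gave -0.19 to 0.079 for Sod2, -0.013 to 0.30 for Gpx3, -0.29 to 0.64 for Gpx7, -0.52 to 0.36 for Txnrd2, -0.24 to 0.067 for Gstm1, -0.053 to 0.36 for Gsto2, -0.35 to 0.48 for Gstp2, -0.18 to 0.0025 for Pgls and -0.26 to 0.53 for Glrx5. The range was -0.24 to 0.012 for Cul3, -0.089 to 0.043 for Sod1, -0.015 to 0.16 for Prdx2, -0.0090 to 0.13 for Gss, -0.28 to 0.66 for Gstm7, -1.02 to 2.32 for Gstt3, -0.013 to 0.13 for Prdx5, -0.099 to 0.072 for Gsr, -0.22 to 0.037 for Gstk1, -0.0026 to 0.27 for Gstm4 and -0.011 to 0.012 for Keap1. Of the other values of single genes, 553 kept their direction and their side of the threshold under another setting, 8 passed it and 6 no longer did. With a library or an experiment left out these numbers were 496, 1 and 15. The depth is unknown, and the 6 genes with a mean under 50 have a median standard error of 0.50 on the log2 scale, against 0.11 for the other 44.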

Other observations

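Summed over a role, normalized counts overlapped between the groups in all 8 roles. The 6 genes for peroxiredoxins and sulfiredoxin summed to 16718, 16724 and 17402 in pseudo-islets against 16901, 15048 and 15626.5 in pseudo-beta. The 18 glutathione S-transferases summed to 30209.8, 24518 and 29706 in pseudo-islets against 32818, 20599.9 and 22340.4 in pseudo-beta, and pseudo-beta of experiment 35, with its high Gstm1, was the highest of the 6 libraries. The 5 genes of NRF2 and its stress targets summed to 5794, 5783 and 5149 in pseudo-islets against 5851, 4848 and 4209.7 in pseudo-beta, lower in pseudo-islets in experiment 35 and higher in the other two. Without Ftl1 and Fth1 the other 48 genes summed to 73952, 67658 and 75901 in pseudo-islets against 76237, 60895 and 64023 in pseudo-beta.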
